A study of Caenorhabditis elegans with 9 samples.

Results

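The transthyretin-related family of *Caenorhabditis elegans* is the set of genes with the symbol *ttr-*, and its expression was followed here in control worms and in worms exposed to sodium arsenite at 0.003% (low dose) or 0.03% (high dose). The members were the genes with a *ttr-* symbol that had a probeset assigned to them alone. This gave 40 of the 17118 genes tested, out of 59 family genes in the RefSeq gene table (58 protein-coding genes and 1 pseudogene). Of the other 19, 6 shared a probeset with another member and 13 had no probeset assigned, among them *ttr-33*. Only *ttr-24* had more than 1 probeset of its own, and the brighter of its 2 was used. Membership followed from the symbol and its probeset, and no difference between the groups entered that rule. Even so, the members and the gene lists below were picked with earlier results of these data known.

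Each group had 3 arrays, labelled as biological replicates 1 to 3. The methods name the wild type Bristol strain N2, cultured with shaking in CeHM, a liquid medium. The control worms had no treatment, and the exposed worms spent 6 h at 22 °C in CeHM with 0.003% or 0.03% (w/v) sodium arsenite. The sources differ on the larval stage, which is L3 in the sample labels, L1 in the methods and L4 in the results. RNA came from whole worms, so fewer cells of a type and less RNA per cell cannot be told apart. The methods describe 3 independent RNA isolations per condition. Whether each came from its own culture is not stated, and the p-values then measure no more than the spread between these samples.

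Transthyretin is a vertebrate blood protein that carries thyroid hormone and, together with retinol-binding protein, retinol. Nematodes have a large family of small proteins related to it, most of which carry a signal for secretion, and the function of most members is not known. The best studied member is TTR-52, a secreted protein that binds phosphatidylserine on the surface of dying cells and links it to the engulfment receptor CED-1. TTR-33 protects dopaminergic neurons of the worm against oxidative stress. Arsenite binds thiol groups and is known to raise oxidative stress. The arrays measured gene expression under arsenite, and not oxidative stress itself.

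The values are log2 signals, 1 per probeset and array, so a difference of 1 stands for a 2 fold change. The family gave bright signals. The median over members of the mean signal on the 9 arrays was 10.5, against 8.52 over all genes, and 32 of the 40 members lay above the median of all genes. Signals of different probesets also depend on their probes and do not rank the genes by amount. *ttr-16* had the highest mean of the family, with 14.80, 14.90 and 14.92 on the control arrays, 15.11, 14.97 and 14.91 on the low dose arrays and 15.03, 14.92 and 14.96 on the high dose arrays. These 9 values differed little, and the high dose change of 0.10 had a 95% confidence interval of -0.15 to 0.34. *ttr-50* had the lowest, with 4.28, 4.71 and 3.01 on the control arrays, 4.45, 4.38 and 2.91 on the low dose arrays and 3.48, 5.10 and 4.38 on the high dose arrays. Its values scattered within each group and the 3 groups overlapped. In 5 members (*ttr-19*, *ttr-22*, *ttr-28*, *ttr-50* and *ttr-52*) at least 1 group mean fell below 6.26, the limit of the dimmest 25% of genes. The typical spread between arrays of a group was an SD of 0.167 in the family, against 0.241 over all genes.

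**Figure D1:**
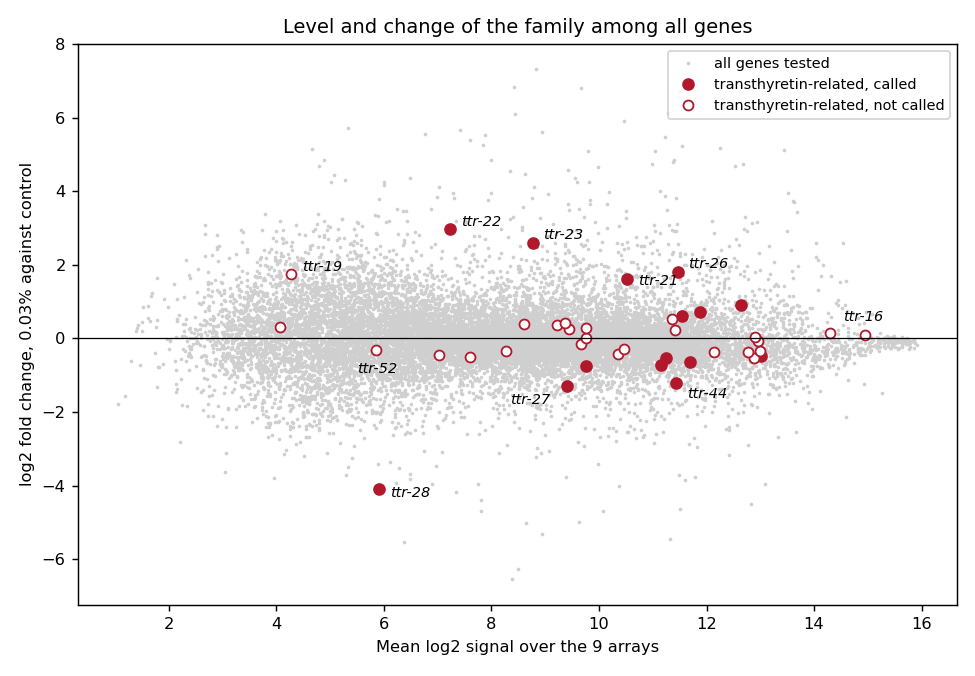
The mean log2 signal over the 9 arrays (horizontal axis) is plotted against the log2 fold change of the high dose over control (vertical axis), with all 17118 genes as grey points and the 40 family members as red circles, filled where called. Most members sit to the right of the grey cloud's middle, and *ttr-28* at -4.10 and *ttr-22* at 2.97 mark the ends of the family's range.

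At the high dose, 15 of the 40 members were called differentially expressed against control (37.5%), and 20.0% of all genes tested were. A gene was called at an adjusted p of at most 0.05 (limma, Benjamini-Hochberg over all 17118 genes) and a change of at least 1.2 fold. The called members went both ways, 7 up (17.5%) and 8 down (20.0%), beside 9.0% of all genes called up and 11% called down. The median change over the family was -0.02, against -0.05 over all genes, and both medians lay near no change. Increases of at least 2 fold were called in 4 members, against 5.00% of all genes, and decreases of that size in 3 members, against 4.26% of all genes. Bright genes were called more often than dim ones. Within the brighter 50% of genes, a subset taken after the values were seen, 13 of 32 members (40.6%) and 31.6% of all 8559 genes were called. Without control replicate 2 or without control replicate 3 the count of called members was 11. The count over all genes was 2523 and 2616 in these fits, against 3418 with all arrays.

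**Figure D2:**
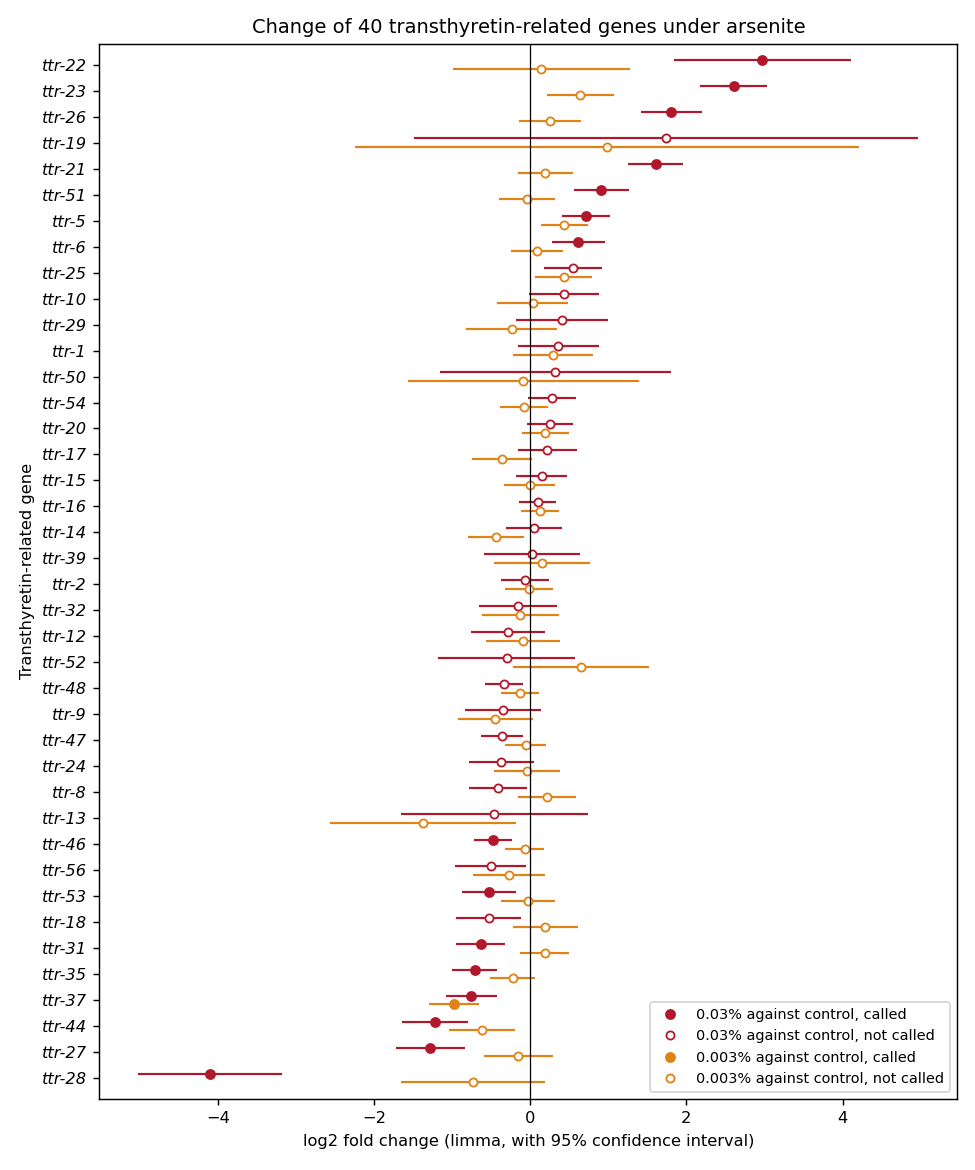
Log2 fold changes of the 40 members with their 95% confidence intervals are shown for the high dose against control (red) and the low dose against control (orange), with filled points for called changes and genes ordered by the high dose change. At the high dose 7 members are called to the right of 0 and 8 to the left, while *ttr-37* is the 1 filled orange point.

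The members that rose were led by *ttr-22*, *ttr-23*, *ttr-26* and *ttr-21*, which increased by 3.04 to 7.83 fold. None of these has a role stated in the sources used here. *ttr-22* had log2 signals of 8.96, 8.99 and 9.55 on the high dose arrays, against 6.77, 6.82 and 4.99 on the control arrays. The groups did not overlap, and 1 control array was well below the others. The increase was 2.97 on the log2 scale (SE 0.49, limma adjusted p = 0.00463). It was 2.37 without control replicate 3, the low array (adjusted p = 0.00168). *ttr-23* had 10.13, 10.41 and 10.32 on the high dose arrays, against 7.62, 7.57 and 7.87 on the control arrays. Every high dose array lay more than 2 log2 units above every control array. The increase was 2.60 (SE 0.18, adjusted p = 8.67e-05), the smallest p of the family.

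*ttr-26* had signals of 12.63, 12.61 and 12.52 at the high dose, against 10.82, 10.98 and 10.53 in control. The high dose arrays were close together and all above control, with an increase of 1.81 (SE 0.17, limma adjusted p = 3.17e-04). For *ttr-21* the high dose arrays gave 11.41, 11.53 and 11.66, against 9.90, 10.15 and 9.73 for the control arrays. Its groups were also apart, and the increase was 1.61 (SE 0.15, adjusted p = 3.47e-04).

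The other increases were under 2 fold. *ttr-51* had 13.24, 13.44 and 13.14 on the high dose arrays, against 12.41, 12.52 and 12.15 on the control arrays, an increase of 0.91 (SE 0.15, limma adjusted p = 0.00509). *ttr-5* had 12.13, 12.34 and 12.15, against 11.54, 11.65 and 11.29 in control, an increase of 0.71 (SE 0.13, adjusted p = 0.00728). Neither gene's high dose arrays overlapped its control arrays. *ttr-6* rose by 0.61 (SE 0.14, adjusted p = 0.0218), a call that was lost without high dose replicate 1 (0.0669) or 2 (0.0734) and without control replicate 2 (0.0711) or 3 (0.0740). The probeset of *ttr-51* is of the class marked _s_at by the manufacturer, which may also bind other transcripts, as are those of *ttr-15*, *ttr-18*, *ttr-24*, *ttr-44* and *ttr-50*.

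Among the members that fell, *ttr-28* stood far from the rest. Its high dose arrays gave 3.68, 3.62 and 2.95, against 7.44, 7.10 and 8.03 on the control arrays. The lowest control array was still more than 3 log2 units above the highest high dose array. The change was -4.10 (SE 0.39, limma adjusted p = 3.69e-04), or 17.2 fold on the linear scale. The high dose mean of 3.42 lay in the dimmest 25% of genes, and whether the gene was detected there was not examined.

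*ttr-27* had 8.39, 8.70 and 8.74 on the high dose arrays, against 9.84, 10.18 and 9.66 on the control arrays. *ttr-44* had 10.87, 11.11 and 10.48, against 12.05, 12.17 and 11.91 in control. For both genes every high dose array was lower than every control array. The changes were -1.28 for *ttr-27* (SE 0.19, limma adjusted p = 0.00280) and -1.22 for *ttr-44* (SE 0.18, adjusted p = 0.00298).

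The next decreases were smaller than 2 fold. *ttr-37* had 9.48, 9.68 and 9.57 on the high dose arrays, against 10.36, 10.47 and 10.17 on the control arrays. *ttr-35* had 10.77, 10.85 and 10.64, against 11.48, 11.49 and 11.42 in control. *ttr-31* had 11.23, 11.36 and 11.05, against 11.72, 11.91 and 11.93 in control. None of these 3 genes had a high dose array as high as its lowest control array. The changes were -0.75 for *ttr-37* (SE 0.14, limma adjusted p = 0.00749), -0.71 for *ttr-35* (SE 0.12, adjusted p = 0.00609) and -0.64 for *ttr-31* (SE 0.13, adjusted p = 0.0136). The call of *ttr-31* was lost without control replicate 2 (adjusted p = 0.0506) or 3 (adjusted p = 0.0501).

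Among the called decreases the last ones were the least stable. *ttr-53* fell by 0.53 on the log2 scale (SE 0.15, limma adjusted p = 0.0416) and *ttr-46* by 0.48 (SE 0.11, adjusted p = 0.0171). The call of *ttr-53* was lost in 11 of 20 alternatives, with an adjusted p of 0.121 without control replicate 2 or 3, 0.118 without high dose replicate 3 and 0.115 without high dose replicate 1. It was 0.0540 without control replicate 1, and 0.0527, 0.0570 and 0.0670 without low dose replicates 1, 2 and 3. That of *ttr-46* was lost without control replicate 2 (0.0604) or 3 (0.0572) and without high dose replicate 3 (0.0551), and where a change of at least 1.5 fold was required.

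**Figure D3:**
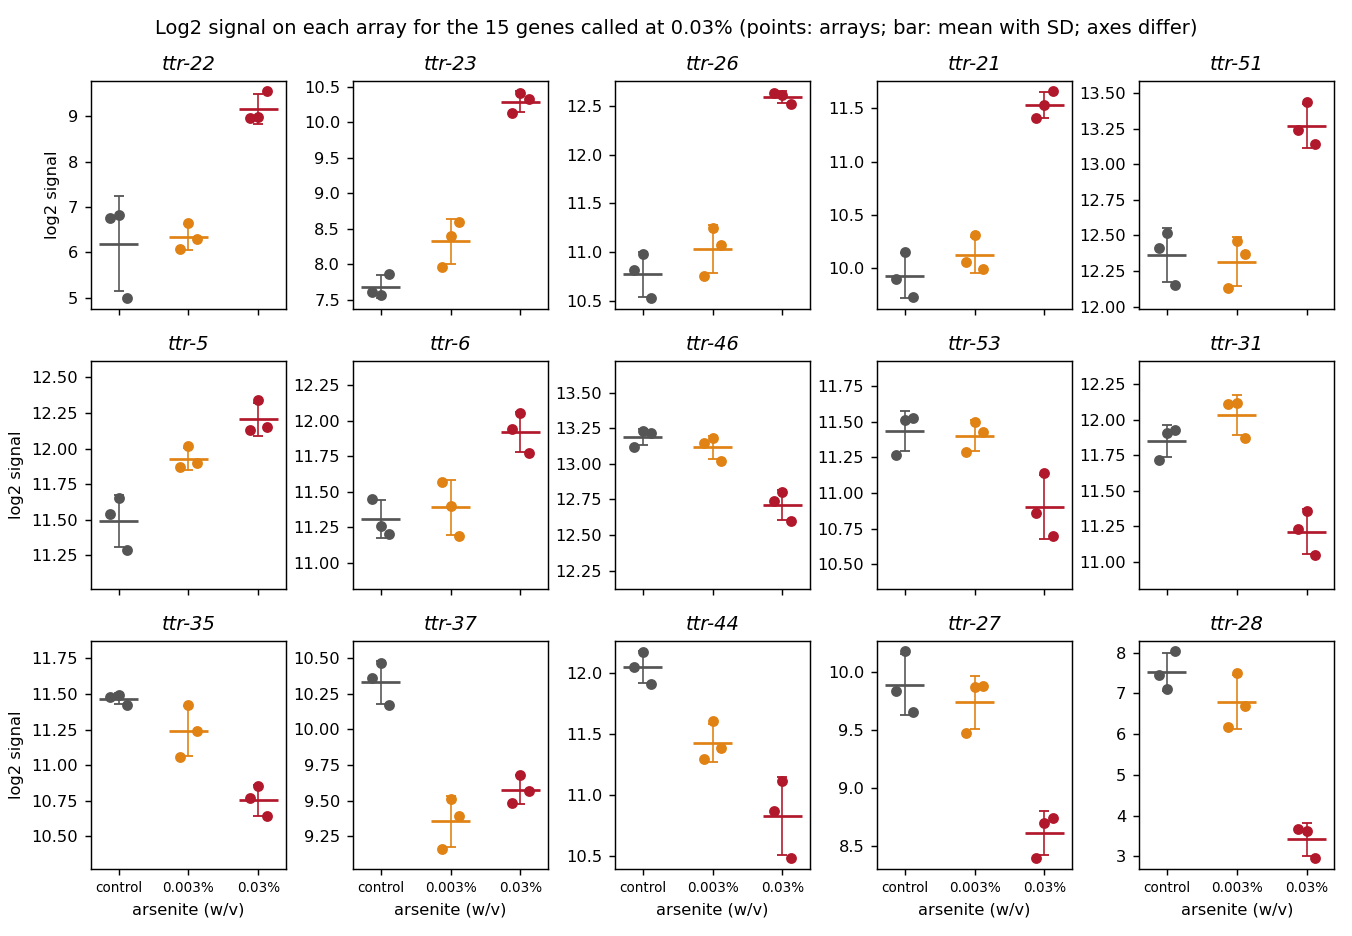
Log2 signals of the 15 members called at the high dose are shown array by array for control, 0.003% and 0.03% arsenite, with the group mean and SD as bars and a separate vertical axis for each gene. The high dose arrays lie wholly above or wholly below the control arrays in all 15 genes, and in 12 of them the low dose mean lies between the other means.

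The other 25 members were not called at the high dose. In 21 of them the change was smaller than 0.5 on the log2 scale, and in 5 the 95% confidence interval stayed within 1.5 fold of no change in both directions. Over all 40 members, 27 had high dose arrays wholly apart from the control arrays, a pattern found in 38.4% of all genes, and 12 of these 27 were not called. An unadjusted p under 0.05 was found for 21 members, beside 31.5% of all genes. The nearest to a call was *ttr-25*, with a change of 0.54 (SE 0.16, limma adjusted p = 0.0510). It was called in 6 alternatives, 1 of them the fit without high dose replicate 3 (0.67, adjusted p = 0.0286). The largest change without a call was that of *ttr-19*, 1.74 with an SE of 1.38, whose values ran over 1.40 to 6.32 on the 9 arrays. The SE of the members ran over 0.103 in *ttr-16* to 1.38 in *ttr-19*.

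*ttr-52*, the phosphatidylserine-binding member, was one of the dim genes. It had 5.31, 6.12 and 5.76 on the control arrays, 6.59, 6.80 and 5.75 on the low dose arrays and 4.82, 5.73 and 5.73 on the high dose arrays. The arrays of both doses overlapped control, and the highest high dose value (5.73) was just under the lowest low dose value (5.75). The high dose change was -0.30 (95% confidence interval -1.18 to 0.57, limma adjusted p = 0.654), an interval that leaves room for a change of either sign.

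At the low dose, *ttr-37* was the 1 member of 40 called against control (2.50%), while 1.55% of all genes were called. No member was called up, beside 1.05% of all genes, and *ttr-37* was the only one called down, beside 0.508% of all genes. The signals of *ttr-37* were 9.16, 9.51 and 9.39 on the low dose arrays, against 10.36, 10.47 and 10.17 on the control arrays. All low dose arrays were below all control arrays, and the change was -0.98 (SE 0.14, limma adjusted p = 0.0158). The call was lost without low dose replicate 1 (adjusted p = 0.0510) or 3 (0.0609), without control replicate 1 (0.0683) or 2 (0.0693), and with only the arrays of these groups in the fit (0.0795). An unadjusted p under 0.05 was found for 7 members (17.5%), beside 11.7% of all genes. Low dose and control arrays were wholly apart in 11 members, beside 18.2% of all genes.

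The largest low dose difference without a call was that of *ttr-13*, -1.37 with an SE of 0.51 (limma adjusted p = 0.351). *ttr-44* differed by -0.62 (SE 0.18, adjusted p = 0.217) and *ttr-23* by 0.64 (SE 0.18, adjusted p = 0.209), and the low dose arrays of both were apart from control. After removal of the dimmer 50% of genes, the change of *ttr-23* reached an adjusted p of 0.0336. *ttr-44* reached 0.0367 there, and 0.0315 with a variance trend and robust estimation. The low dose arrays gave 6.07, 6.64 and 6.29 for *ttr-22*, 10.76, 11.25 and 11.08 for *ttr-26* and 10.06, 10.31 and 9.99 for *ttr-21*, values that overlapped those of control. For *ttr-28* they gave 6.18, 7.49 and 6.69, which overlapped control, with a difference of -0.74 (SE 0.39, adjusted p = 0.539).

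Between the doses, 14 of the 40 members were called in the high dose against the low dose worms (35.0%), while 16.8% of all genes were. Of these, 7 were higher at the high dose, beside 7.34% of all genes, and 7 were lower, beside 9.49% of all genes. The largest increases were those of *ttr-22* (2.83, SE 0.49, limma adjusted p = 0.00695), *ttr-23* (1.96, SE 0.18, adjusted p = 5.05e-04) and *ttr-26* (1.56, SE 0.17, adjusted p = 9.23e-04). The low dose arrays of *ttr-23* gave 7.97, 8.40 and 8.60, all below its high dose arrays and all above its control arrays. The largest decreases were those of *ttr-28* (-3.37, SE 0.39, adjusted p = 0.00128), *ttr-27* (-1.13, SE 0.19, adjusted p = 0.00617) and *ttr-31* (-0.82, SE 0.13, adjusted p = 0.00539). The low dose arrays gave 9.47, 9.87 and 9.88 for *ttr-27* and 12.11, 12.12 and 11.87 for *ttr-31*, all above the high dose arrays of the same gene. The arrays of the doses were wholly apart in 24 members, beside 34.0% of all genes, and 21 members had an unadjusted p under 0.05, beside 28.8% of all genes.

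*ttr-17*, *ttr-18* and *ttr-8* were called between the doses but in neither comparison with control. *ttr-17* was higher at the high dose by 0.58 (SE 0.16, limma adjusted p = 0.0495), while *ttr-18* differed by -0.73 (SE 0.18, adjusted p = 0.0305) and *ttr-8* by -0.63 (SE 0.16, adjusted p = 0.0344). The low dose mean of *ttr-17* was below its control mean, and those of *ttr-18* and *ttr-8* were above theirs. These calls were close to the threshold. The call of *ttr-17* was lost without any 1 of the 9 arrays other than low dose replicate 2 (adjusted p of 0.0780 to 0.146). That of *ttr-18* was lost without any 1 array other than high dose replicate 2 or control replicate 2 (0.0513 to 0.0895), and that of *ttr-8* without any other than low dose replicate 3 or control replicate 1 (0.0543 to 0.0973). Of the members called in both high dose comparisons, *ttr-6* (0.0551 to 0.134) and *ttr-35* (0.0573 to 0.101) lost the call between the doses without any 1 array other than low dose replicate 1, and *ttr-46* (0.0609 to 0.107) without any 1 array. The count of called members between the doses was 8 without high dose replicate 1, high dose replicate 3 or control replicate 3, and 9 without control replicate 1 or 2. In that order the fits called 2127, 2270, 2527, 2480 and 2532 of all genes, against 2880 with all arrays.

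The order of the groups was described in the 15 members called at the high dose. They were picked by the gap between control and high dose, so many low dose means would fall between without any low dose effect. In 12 of them the low dose mean lay between the control and high dose means. This count alone does not show an order by dose. The exceptions were *ttr-51*, *ttr-31* and *ttr-37*. In *ttr-51* the 3 means were 12.36 in control, 12.32 at 0.003% and 13.27 at 0.03%, and the low dose difference of -0.045 was smaller than its SE of 0.15. In *ttr-31* they were 11.85, 12.03 and 11.21 in the same order of groups. In *ttr-37* they were 10.33, 9.35 and 9.58, so that the low dose mean was the lowest, with a high minus low difference of 0.22 (SE 0.14, limma adjusted p = 0.352). *ttr-37* was the 1 gene of the 15 that was farther from control at the low dose. Both comparisons with control use the same 3 control arrays, so their changes in a gene are not independent. In all, 18 members were called in at least 1 of the 3 comparisons and 22 in none.

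Family members that lie side by side on a chromosome in RefSeq (assembly WBcel235) did not always change alike. *ttr-27*, *ttr-28* and *ttr-29* are adjacent on chromosome V. The first and second of them fell at the high dose, while *ttr-29* had 8.98, 8.95 and 8.92 on the high dose arrays, against 8.53, 8.57 and 8.53 on the control arrays. All high dose arrays of *ttr-29* were above control, but its difference of 0.41 (SE 0.25) was not called (limma adjusted p = 0.328). The SE comes from all 9 arrays, and the low dose arrays gave 7.68, 8.75 and 8.48. It was called up without low dose replicate 1 (adjusted p = 0.0450) and with only the high dose and control arrays in the fit (adjusted p = 0.0422). *ttr-24*, *ttr-25* and *ttr-26*, also adjacent on chromosome V, had changes of -0.37, 0.54 and 1.81, and *ttr-26* was the 1 called. On chromosome IV, *ttr-53* fell while its neighbour *ttr-54* had a difference of 0.28 (adjusted p = 0.197). Differences between neighbours were not tested against each other.

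**Figure D4:**
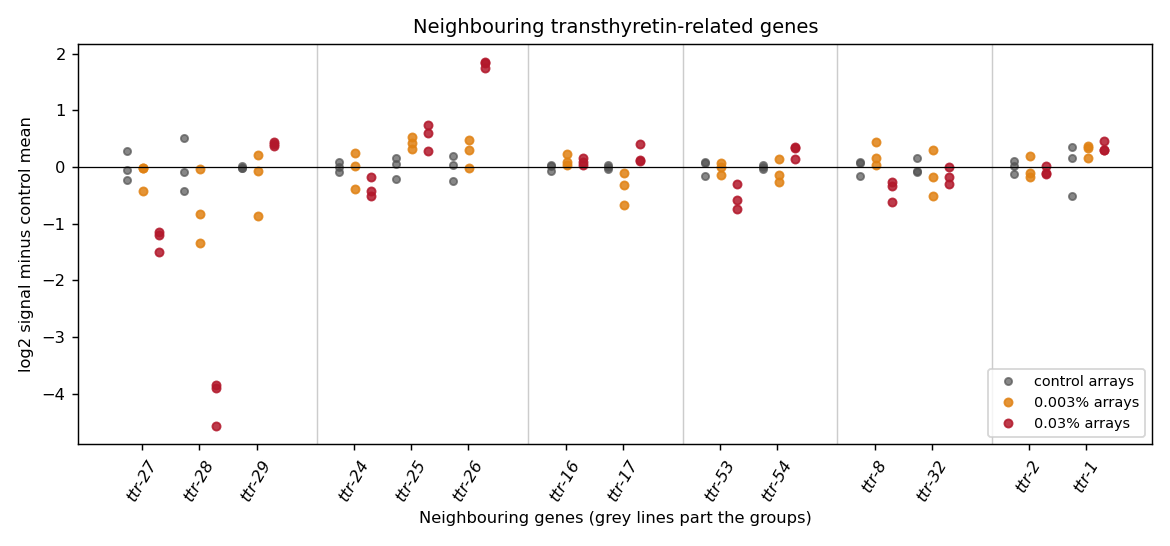
For measured members that are adjacent on a chromosome, the log2 signal of each array minus the gene's control mean is plotted, with control arrays in grey, low dose arrays in orange and high dose arrays in red. In the group of *ttr-27*, *ttr-28* and *ttr-29* the high dose arrays lie below 0 in the first and second gene and above 0 in the third.

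By chromosome, 8 of the 16 members measured on chromosome V were called at the high dose (4 up and 4 down), beside 19.2% of all genes on that chromosome. On the X chromosome 4 of 6 were called (1 up and 3 down), beside 24.8% of all genes there. On chromosome IV 2 of 9 were called (1 up and 1 down), beside 21.1%, and on chromosome III 1 of 7, upward, beside 19.2%. The single members measured on chromosomes I and II were not called. Chromosomes IV, V and X each held called members of both directions.

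The second probeset of *ttr-24* gave 11.78, 11.95 and 11.62 on the control arrays, 11.94, 12.08 and 11.84 on the low dose arrays and 11.50, 11.40 and 11.26 on the high dose arrays. Its high dose arrays were below all others. It was called between the doses (-0.57, SE 0.13, limma adjusted p = 0.0248) but not against control (-0.39, adjusted p = 0.0800). The brighter probeset used for the gene gave -0.33 between the doses (adjusted p = 0.286) and -0.37 against control, so the call of *ttr-24* depended on the probeset.

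Genes linked to the family by known function were described by lists. Over all genes, 20.0% were called at the high dose, 1.55% at the low dose and 16.8% between the doses. Of the 11 measured genes linked to phosphatidylserine or to engulfment, the pathway of TTR-52, none was called against control at either dose. Their median change was 0.04 at the high dose. *ced-2* alone was called between the doses, upward, with a low dose mean below control (-0.39) and a high dose mean above it (0.27). None of the 5 dopaminergic neuron genes was called against control at either dose. *bas-1*, which makes a step of dopamine synthesis, was lower at the high than at the low dose. Its low dose mean was above control by 0.58 (limma adjusted p = 0.0723). Its high dose mean was near control (-0.09, adjusted p = 0.656). The nearest relatives of transthyretin outside the *ttr-* genes are enzyme-like proteins that act on 5-hydroxyisourate, a product of urate oxidation. Of that list of 4, 3 were measured. *R09H10.3*, one such relative, fell by 0.91 on the log2 scale at the high dose (SE 0.15, limma adjusted p = 0.00496), and *xdh-1*, the worm's xanthine dehydrogenase, an enzyme that forms urate, rose by 0.69 (SE 0.15, adjusted p = 0.0149).

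Since most family members carry a secretion signal, genes for entry into the secretory pathway were also followed. Of 8 measured of 13 listed, 5 fell at the high dose and none rose, with a median change of -0.76, against -0.05 over all genes. The 4 *trap* genes, subunits of a complex at the translocon, fell by 1.02 to 1.53 on the log2 scale (limma adjusted p of 7.42e-05 to 0.00177), and *spcs-2*, a subunit of signal peptidase, fell by 0.39 (adjusted p = 0.0440). The mean level of the list was at most 12.21 on the high dose arrays, against at least 12.90 on the control arrays. At the low dose none was called. Of 17 moulting genes, 8 were called down at the high dose and none up, with a median change of -0.60 over the list. Among the 8 were *mlt-10* (-2.07) and *fbn-1* (-1.79). The mean level of the list was 10.20 to 10.42 on the high dose arrays, against 10.95 to 10.96 on the control arrays. At the low dose again none was called.

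Markers of the worm's tissues also moved at the high dose. The mean level of 6 hypodermis markers was 11.19 to 11.31 on the high dose arrays, against 11.89 to 12.03 on the control arrays, and 5 of the 6 were called down, *dpy-7* by the most (-1.47). The mean level of 6 germ line markers was 10.36 to 10.41, against 10.88 to 11.06 in control, and 4 of the 6 were called down. Of 4 body wall muscle markers 1, *myo-3*, was called down (-0.53, adjusted p = 0.0373). The list level was 11.10 to 11.72 at the high dose, against 12.04 to 12.13 in control, a difference that came mostly from *hlh-1*, which was not called (-2.09, SE 0.88, adjusted p = 0.152), while *unc-54* (-0.22) and *unc-15* (-0.10) differed less. Markers of the intestine (1 up and 2 down of 6), the pharynx (1 up and 1 down of 5) and neurons (1 up of 6) overlapped between the groups in their mean level. Of the 33 markers measured, *rgef-1* of neurons alone had a mean over the 9 arrays below 6.26, and *hlh-1* had a high dose mean of 5.57. At the low dose the hypodermis marker *col-19* was the 1 marker called, downward (-1.46), beside 0.508% of all genes. The hypodermis list lay at 11.68 to 11.87 on those arrays, below its control range, while its median change was 0.11. The part of these markers, and of the secretory and moulting genes, in the changes of the family members was not tested.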

How the data were processed

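RNA from 9 samples, 3 each of control, low dose and high dose worms, was hybridized to 9 Affymetrix *C. elegans* arrays, 1 per array. The authors deposited 1 log2 signal per probeset and array. Their methods give RMA for summarization but the processing notes give Partek 6.4 and MAS5, which leaves it unsettled. No further scaling was applied. Array medians ran over 8.42 to 8.52, 41 values were below 0, and within groups the correlation between arrays (over genes, which are no independent replicates) was 0.940 to 0.952. The number of arrays limits the precision.

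Of 22625 probesets, 77 controls, 895 with no assigned gene and 887 with several were left out. The remaining 20766 were assigned to 1 gene each, 65 of them matched to RefSeq (assembly WBcel235) by symbol. RefSeq was used only for names, the list of family genes with their types, chromosomes and neighbours. For the 2981 genes with more than 1 probeset the brightest by mean was kept, following the methods, for a total of 17118 genes. All 3 comparisons were fitted in one limma 3.58.1 model (lmFit and eBayes, R 4.3.3) without covariates, with 6 residual and 1.45 prior degrees of freedom. Adjustment was by Benjamini-Hochberg over all genes, and calls needed an adjusted p of at most 0.05 and 1.2 fold. The test was checked on simulated data. Figures used matplotlib 3.10.9 (Python 3.11.15).

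Every member may be named. Values on each array are given for the 6 largest called increases and the 6 largest called decreases at the high dose, the low dose call, the 3 largest changes each way between the doses, *ttr-52*, and the members with the highest and lowest mean, and those of *ttr-29* and of the second *ttr-24* probeset were added after their values were seen. Genes of the lists are named where called, and *rgef-1*, *hlh-1*, *unc-54* and *unc-15* were added after their values were seen. The members and lists were chosen with earlier results of these data known. In 20 alternatives the variance model, fold threshold, filter on dim genes, normalization, probeset choice, samples in the fit, replicate block and each array in turn were varied.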

Additional observations from a re-analysis of the deposited data

Results flagged for a closer look

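The probesets assigned to more than 1 gene entered no comparison above. One of the 3 that belong to the family is assigned to a pair of neighbouring members of the X chromosome and cannot be given to either. It had log2 signals of 11.22, 11.19 and 11.13 on the high dose arrays, against 9.90, 10.37 and 10.11 on the control arrays. All high dose arrays were above all control arrays, with a difference of 1.06 (SE 0.18, limma adjusted p = 0.00510 in a fit with the unused family probesets added). The low dose arrays gave 10.26, 10.77 and 10.34, a difference from control of 0.33 (adjusted p = 0.536), and the high dose arrays were above them by 0.72 (adjusted p = 0.0301). The other 2 such probesets had differences of -0.33 and 0.19 at the high dose and were not called in any of the 3 comparisons (adjusted p of 0.353 or more).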

How the results depend on the processing

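For the named members, 71 changes were recomputed under the 20 alternatives, which gave 1390 values. Of these, 1260 kept their direction and their side of the threshold, 89 lost a call, 21 gained one and 20 changed direction, all of them changes without a call in either fit, and the cause was not tested. Alternatives of the variance model, the fold threshold and the filter on dim genes cannot alter a log2 change or its direction. Nor can the replicate block, a fit of only the compared groups, or leaving out an array of the group not compared. The mean of a gene's probesets can alter the change of *ttr-24* alone. The 1260 is thus no measure of stability by itself. Leaving out 1 array at a time gave low dose differences of -0.0102 to 2.45 for *ttr-19*, -0.464 to 0.449 for *ttr-22*, -0.186 to 0.131 for *ttr-24*, -0.462 to 0.072 for *ttr-29*, -0.585 to 0.413 for *ttr-50*, -0.149 to 0.0499 for *ttr-51* and -0.195 to 0.0017 for *ttr-54*. It gave -0.175 to 0.741 for *ttr-50* at the high dose, and -0.0685 to 0.0321 for *ttr-16*, -0.706 to 1.75 for *ttr-19* and -0.0914 to 0.83 for *ttr-50* between the doses. Quantile normalization gave *ttr-50* 0.0001 at the low dose, the mean of its probesets gave *ttr-24* 0.0653 there, and centring arrays on their medians gave *ttr-16* 0.0129 between the doses. The calls at the high dose of *ttr-5*, *ttr-21*, *ttr-23*, *ttr-26*, *ttr-27*, *ttr-35*, *ttr-37*, *ttr-44* and *ttr-51* held in every alternative, and those of *ttr-22* and *ttr-28* in every one that kept the gene. The filter on the dimmest 25% of genes removed *ttr-28* and that on the dimmer 50% removed both. The low dose count depended most on the settings. With the dimmer 50% of genes left out it was 3 family members and 533 of all genes, with a variance trend and robust estimation 2 and 545, and with only the compared groups in the fit 0 and 139, against 1 and 266 in the model of all groups, and the cause was not tested. Leaving out 1 array gave 0 to 1 members and 170 to 223 of all genes at the low dose, with fewer samples in each fit. It gave 11 to 16 members and 2523 to 3380 of all genes at the high dose, and 8 to 11 members and 2096 to 2532 of all genes between the doses. Only the compared groups in the fit left 8 of the 14 members called between the doses, and 2128 of all genes, against 2880 in the model of all groups. Whether replicate numbers pair the samples is not stated. Deviations of same-numbered arrays correlated at -0.025 to 0.033, and the same number correlated best in 11 of 18 pairings of an array with a group. These values cannot decide it, since the correlation that a real pairing would give is not known. With the replicate block, 14 members were called at the high dose, 1 at the low dose and 12 between the doses, against 2846, 160 and 2345 of all genes, and the call of *ttr-53* at the high dose and those of *ttr-17*, *ttr-35* and *ttr-46* between the doses were lost, while *ttr-44* gained a call between the doses (adjusted p = 0.0467). Dim members limit what 3 arrays per group can show.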
